A study of Oryza sativa with 4 samples.

Results

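Os10g0546100, Os03g0608000 and Os12g0114000 are 3 rice genes of little known function that were chosen by the mean signal of their probes in root hair RNA. They are 3 of the 29689 genes of the Rice Annotation Project (RAP) that the array measures, and all 3 stand on the study's list of 409 root hair-preferential genes. That list was drawn up partly from these same arrays, so their brightness here is a description and is not evidence of preference for root hairs. Os10g0546100 (LOC_Os10g39890, chromosome 10) is annotated as a protein with a pollen Ole e 1 allergen and extensin domain. Os03g0608000 (LOC_Os03g41130, chromosome 3) and Os12g0114000 (LOC_Os12g02240, chromosome 12) are both annotated only as hypothetical proteins. For Os12g0114000 the paper has evidence apart from the arrays. It reports root hair-preferential reporter staining in a promoter trap line of this gene, and the same preference by real-time PCR. Each gene is read by 1 probe. The ends of rice chromosomes 11 and 12 share a duplicated segment, and whether the probe of Os12g0114000 also reads transcripts of other loci was not tested.

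The RNA came from root hairs rubbed from frozen seminal roots of rice seedlings grown on MSO medium, at 3 days after germination, and was hybridised in 1 colour (Cy3) to 4 Agilent arrays. The cultivar label is Don-gin for replicates 1, 2 and 3 and Lon-gin for the remaining array, whereas the paper describes 4 biological replicates of the cultivar Dongjin, so the 4 arrays are treated as 1 group and the last is called the Lon-gin-labelled array. Slide 1, read in scan 1, held replicates 1 and 2, while slide 2, read in scan 2, held replicate 3 together with the Lon-gin-labelled array. No treatment was applied and no other tissue was measured in the series, and since the RNA is from bulk tissue, fewer cells of a type and less RNA per cell cannot be told apart.

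A root hair is the extension of 1 epidermal cell. It grows at its tip and serves in the uptake of water and nutrients. Their growth depends on continuous deposition of new wall material at the tip. Extensins are hydroxyproline-rich glycoproteins of the plant cell wall, and in Arabidopsis several proline-rich and extensin proteins are products of hair cells. The Ole e 1 domain is named after the major allergen of olive pollen and occurs in secreted plant proteins, many of them in pollen tubes, which also grow at the tip. A hypothetical protein is a predicted gene product without a recognised domain or assigned role.

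The study searched the promoters of its listed genes for root hair-specific cis-elements, short stretches first described in Arabidopsis root hair genes. By the paper's count the 254 stretches lie in the promoters of a minority of its 409 listed genes. Each of the 3 genes has 1 such stretch. Whether 3 genes carry them more often than the list was not tested, and nothing is read from it. The stretches are shown because they are the only regulatory sequence at hand for genes whose products have no assigned role. They are written 5′ to 3′ as listed, with the letters GCACG, which the 3 stretches share, in capitals.
Os10g0546100: aaatcgtggtGCACGac
Os03g0608000: catgtgcagGCACGtt
Os12g0114000: aacttgatccGCACGcc
The stretch of Os03g0608000 is 16 bases long and those of the other genes are 17. The same 5 letters occur on either strand in 122 of the 254 stretches listed by the study (48%), and in 44.9% of them as written, so they do not set these 3 genes apart from the rest of that list. The bases on either side of GCACG differ between the 3 genes. A match is a description of letters and not a measurement of binding, and which strand of the promoter is written was not determined.

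Slide 2 was brighter. For slide 1 the 75th percentile of the log2 processed signal lay between 10.59 and 10.73, and for slide 2 between 11.49 and 11.81. Probes that stood well above background made up 71.5% to 74.1% of all probes on slide 1 and 85.4% to 88.6% on slide 2. Of 10 E1A spike-in probes, 5 exceeded a median spot signal of 1000 on each array of slide 1 and none did on slide 2. OsCSLD1, a cellulose synthase-like gene needed for rice root hair growth, had a scaled log2 signal of 14.40 ± 0.37 (SD, n = 4). OsBOR1, a boron transporter that the paper places in stele, endodermis and exodermis but not in root hairs, had 7.45 ± 0.42. OsSHR1, OsSCR1 and QHB, which pattern the inner root and its tip, lay between 1.87 and 5.01. Lsi1, the silicon transporter of exodermis and endodermis, lay between 9.07 and 10.62 and was well above background on all 4 arrays. How much RNA of other root tissues the samples held was not tested. The identifiers used for OsEXPA17, the paper's own root hair marker, and for OsRHL1 matched no probe and may be wrong. Neither gene was read, and OsCSLD1 is the only root hair marker here. These are signals of different probes, so their order is a description and not an order of transcript amounts.

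Os10g0546100, the Ole e 1 and extensin domain gene, had one of the brightest probes of the array. Its processed signal was 205040 and 222011 units in replicates 1 and 2, 408300 in replicate 3 and 384325 in the Lon-gin-labelled array. Both arrays of slide 2 were thus above both of slide 1 before scaling, by up to 1.99-fold. After scaling to each array's 75th percentile, the log2 signal was 18.21, 18.18 and 18.31 in replicates 1 to 3 and 17.90 in the Lon-gin-labelled array, with a mean of 18.15 ± 0.17 (SD, n = 4). The scaled signals of the 2 slides overlapped, and the lowest and the highest array both lay on slide 2, 0.41 apart on the log2 scale (1.32-fold). The spot stood 7639-fold to 16093-fold above its local background, and its median signal was 23.6% to 49.5% of the scanner's saturation value. This single probe took 0.124% to 0.147% of the summed signal of each array. On replicates 1 and 3 the local background of the spot carried an outlier flag, while the spot itself carried none on any array.

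Os03g0608000, the brighter hypothetical gene, came close behind. Its processed signal was 136424 and 143501 in replicates 1 and 2, 333712 in replicate 3 and 335103 in the Lon-gin-labelled array. The slides did not overlap before scaling, and the largest ratio between arrays was 2.46-fold. The scaled log2 signal was 17.62, 17.55 and 18.02 in replicates 1 to 3 and 17.70 in the Lon-gin-labelled array, with a mean of 17.72 ± 0.20 (SD, n = 4). Both arrays of slide 2 stayed above both of slide 1 after scaling, which was also true of 5229 (26%) of the 20149 genes that every array found well above background with at least 1 probe, called detected genes below. Replicate 3 was the highest, and the Lon-gin-labelled array lay close to replicate 1. The spot stood 4835-fold to 13107-fold above its local background at 14.3% to 37.2% of saturation, and took 0.0899% to 0.12% of the summed signal.

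Os12g0114000, the dimmer hypothetical gene, had the lowest signal of the 3 on every array. Its processed signal was 24468 and 24166 in replicates 1 and 2, 38947 in replicate 3 and 71179 in the Lon-gin-labelled array, which was 2.95-fold above the lowest. The scaled log2 signal was 15.14, 14.98 and 14.92 in replicates 1 to 3 and 15.47 in the Lon-gin-labelled array, with a mean of 15.13 ± 0.25 (SD, n = 4). The Lon-gin-labelled array was the highest of the 4, as it was for 25.9% of the detected genes, while it was the lowest for Os10g0546100, as for 25.8% of detected genes. The 3 Don-gin-labelled arrays lay close together, and replicate 3 was the lowest although it shared slide 2 with the highest. The spot stood 1060-fold to 3047-fold above its local background, at 3.01% to 9.23% of saturation. It took 0.0141% to 0.0229% of the summed signal.

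Every array detected the 3 spots well above background, which held for 67.9% of all genes by at least 1 probe. None of the 3 was saturated, and no spot outside the controls reached saturation on any array. The signal error given by Agilent's Feature Extraction software was 10% for each of them on each array. A value that is the same throughout does not tell their precision apart.

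**Figure D1:**
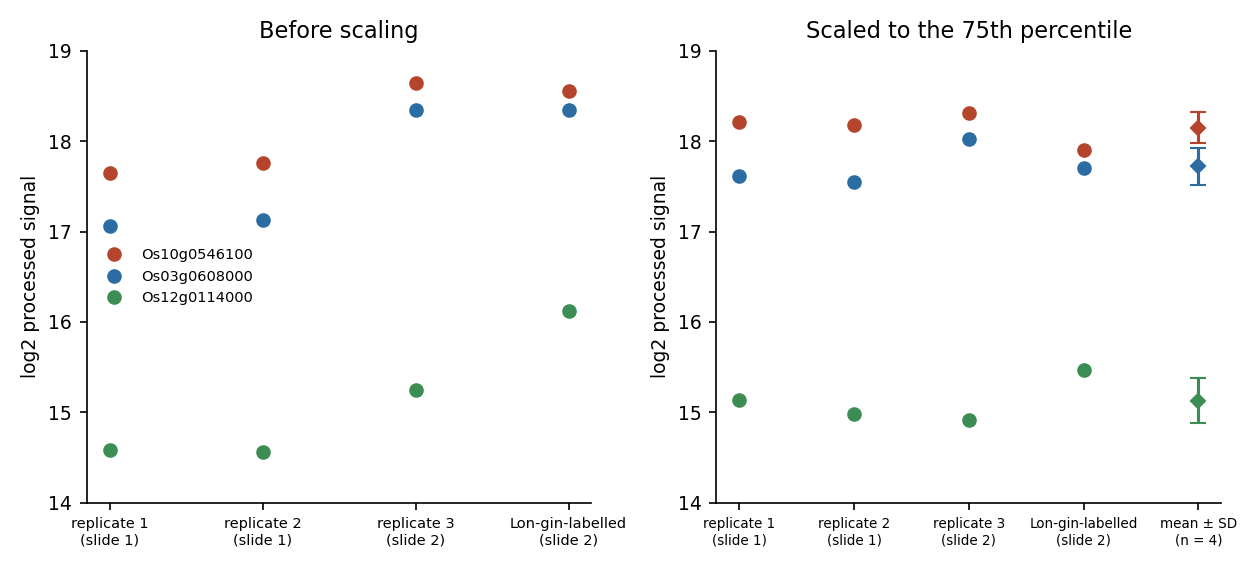
Log2 processed signal of the 3 genes on each of the 4 arrays, before scaling (left) and after scaling to the 75th percentile of each array (right), with diamonds and bars for the mean ± SD over the 4 arrays. The offset between slides in the left panel is mostly gone in the right panel, where each gene spans at most 0.55.

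The 3 genes varied less between arrays than most. The median SD of the scaled log2 signal over the 4 arrays was 0.38 for detected genes, 0.32 for the 543 genes with a mean of at least 15, and 0.48 for the 409 listed genes. Os10g0546100 with its SD of 0.17 stood at percentile 10.3 of the detected genes, Os03g0608000 with 0.20 at percentile 15.4, and Os12g0114000 with 0.25 at percentile 23.8. An SD over 4 arrays is itself imprecise, and this order of the 3 was not tested.

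By mean signal Os10g0546100 ranked 2 of 29689 genes, Os03g0608000 ranked 12 and Os12g0114000 ranked 492, which places them within the top 0.00674%, 0.0404% and 1.66%. On the single arrays Os10g0546100 ranked 6, 4, 1 and 3, in the order of replicates 1 to 3 and the Lon-gin-labelled array. Os03g0608000 ranked 25, 21, 7 and 11 in the same order, and its place was higher on both arrays of slide 2. Os12g0114000 ranked 534, 582, 617 and 333, with its best place on the Lon-gin-labelled array. When each gene was represented by its brightest probe and not by the mean of its probes, the places were 7, 21 and 652, since other genes then moved up.

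**Figure D2:**
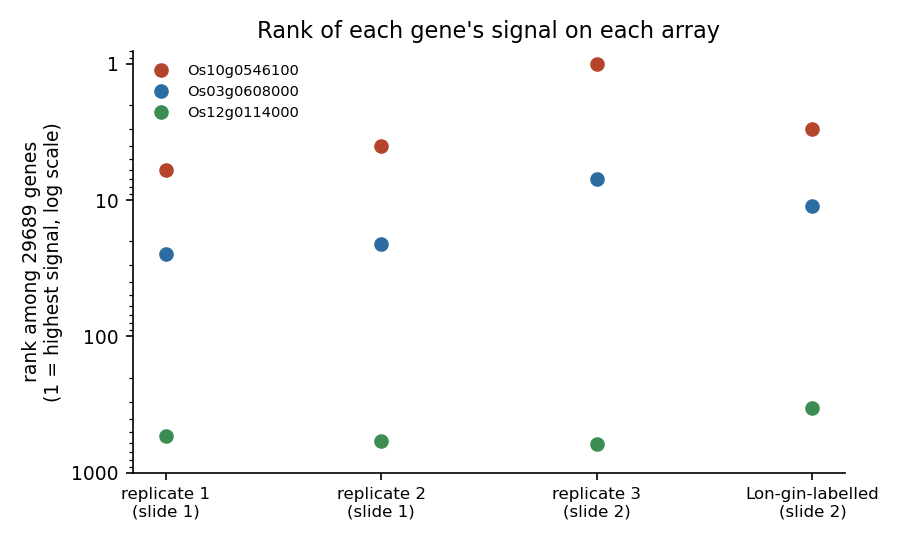
Rank of each gene's scaled signal among all 29689 genes of the array, on a log axis with the highest signal at the top, for each of the 4 arrays. Os10g0546100 stayed between ranks 1 and 6, Os03g0608000 between 7 and 25, and Os12g0114000 between 333 and 617.

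The genes next to them in this order did not differ from them beyond the spread between arrays. Os06g0152100 (18.25 ± 0.25) was the only gene with a mean above that of Os10g0546100, and Os12g0571100 (18.15 ± 0.11) came directly below. The means of 5 genes lay within 1 SD of Os10g0546100, and no gene was above it on all 4 arrays at once. Os03g0608000 was flanked by Os12g0567800 (17.73 ± 0.09) and Os02g0161900 (17.69 ± 0.12), and 15 genes lay within 1 SD of it. On all 4 arrays at once 5 genes were above Os03g0608000 and 29662 were below it. Os12g0114000 lay between Os06g0177000 (15.13 ± 0.50) and Os11g0660500 (15.12 ± 0.18), with 223 genes within 1 SD, 283 genes above it on all 4 arrays at once and 28956 below. Between the 3 genes themselves the order was the same on every array, and the smallest gap was that between Os10g0546100 and Os03g0608000 on the Lon-gin-labelled array.

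Among the 409 listed genes Os10g0546100 ranked 1, Os03g0608000 ranked 3 and Os12g0114000 ranked 45. Of these genes, 78 had no assigned function. Their descriptions were hypothetical protein (23 genes), conserved hypothetical protein (29), no hit (23) and non-protein coding transcript (3). All 78 were detected, beside 67.9% of all genes. Their median mean signal was 11.49 and their median SD 0.49, against 12.08 and 0.48 for the other 331 listed genes. The median mean was 9.35 for all detected genes and 7.27 for all genes. The study kept genes with log2 expression above 8 and chose those high in root hairs, partly on these arrays. High detection and signal of listed genes are thus built into the list. Os03g0608000 led these 78 genes by more than 2 on the log2 scale. Os12g0114000 came 7th, so that the description as highest in signal holds for Os03g0608000 and not for Os12g0114000. Os10g0546100 has a domain annotation and is not one of the 78.

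The 5 genes between the hypothetical members were Os04g0627300 (15.36 ± 0.45, conserved hypothetical), Os01g0795700 (15.27 ± 0.63, hypothetical), Os12g0203200 (15.18 ± 0.31, hypothetical), Os06g0695700 (15.17 ± 0.40, hypothetical) and Os04g0347200 (15.16 ± 0.87, no hit). Each of them lay within its own SD of Os12g0114000, so the places 2 to 7 are not separated by the spread between arrays. Next below were Os03g0306100 (14.91 ± 0.43), Os11g0427700 (14.53 ± 0.56) and Os01g0921100 (14.05 ± 0.37). Os12g0114000 had a smaller SD than each of these 8 genes. The lowest of the 78 genes had a mean of 8.06, and the signals of 11 of them were more than 4-fold apart between arrays, which none of the 3 members was after scaling.

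**Figure D3:**
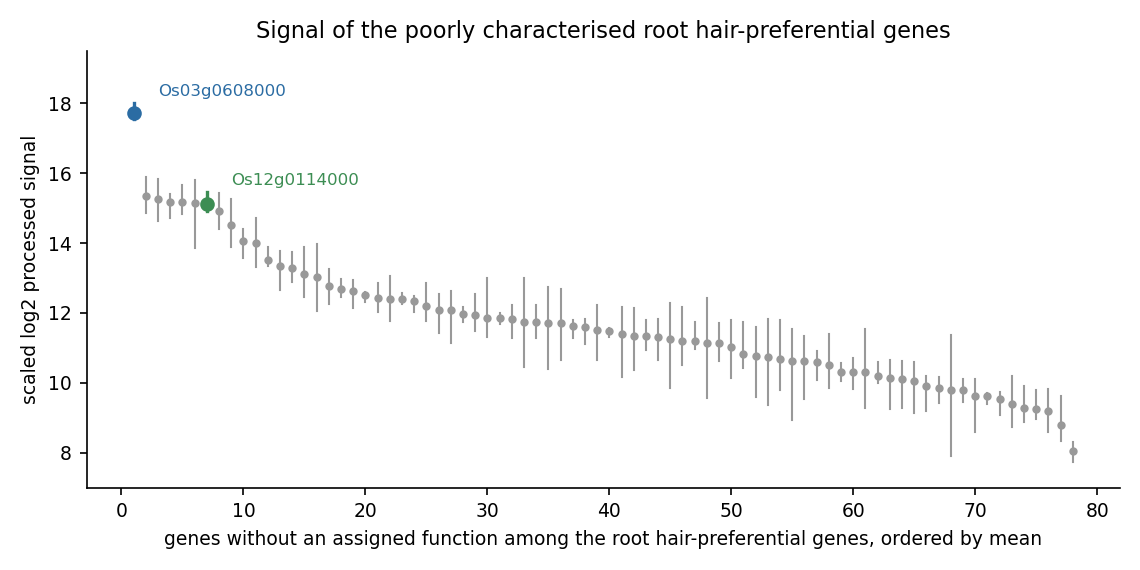
Mean scaled log2 signal (points) and the range over the 4 arrays (lines) of the 78 listed genes without an assigned function, ordered by mean. Os03g0608000 stands apart at 17.72, and Os12g0114000 lies at 15.13 in a group of 6 genes between 15.13 and 15.36.

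Os10g0546100 is 1 of 3 listed genes described as Ole e 1 or extensin proteins in the study's tables. All 3 were detected, beside 67.9% of all genes, but listed genes had been chosen partly by their signal on these arrays. Os01g0594300, an extensin-like protein read by 2 probes, had scaled log2 signals of 14.99, 15.22, 15.93 and 15.17, in the order of replicates 1 to 3 and the Lon-gin-labelled array (15.33 ± 0.41, rank 415). Os10g0208600 (LOC_Os10g14194), which one of the study's tables describes as an Ole e 1 protein and another as a viral coat and capsid protein, had 12.20, 11.51, 11.85 and 11.52 (11.77 ± 0.33, rank 4606). Os10g0546100 was above both on every array. The highest array was replicate 3 for Os10g0546100 and Os01g0594300 and replicate 1 for Os10g0208600.

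The neighbours of the 3 genes along the chromosome gave far lower signals. The members were chosen by their high mean signal, so gaps to genes taken by position follow from that choice and are only described. For each member, the 3 array genes on either side in locus order were read. None of these 18 genes is on the list, which holds only 409 of the 29689 genes, so nothing is read from this. Around Os10g0546100, Os10g0545800 was the highest at 12.02 ± 0.72 and Os10g0546400 the lowest at 4.45, with Os10g0545600 (6.12), Os10g0545700 (11.28), Os10g0546200 (7.75) and Os10g0546300 (8.86) between them. The gap to the highest neighbour was 6.13 on the log2 scale, a 70.2-fold ratio of probe signals. Around Os03g0608000, Os03g0608800 was the highest at 11.52 ± 0.63, a gap of 6.20 (73.6-fold), and Os03g0607700 the lowest at 2.81 ± 0.90. Os03g0607600, Os03g0607800, Os03g0608600 and Os03g0608700 gave 5.90, 8.94, 3.96 and 8.59. In both regions 5 of the 6 neighbours were detected, beside 67.9% of all genes.

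Os12g0114000 had brighter neighbours. Os12g0113500 gave 12.65 ± 0.18 and Os12g0114100 gave 12.29 ± 0.73, so that the smallest gap was 2.48 (5.57-fold), and Os12g0114200 gave 10.21 ± 0.06. The other neighbours, Os12g0113600, Os12g0113900 and Os12g0114400, gave 4.08, 4.62 and 3.89 and were not detected on every array. Each gap was larger than the spread between arrays of either gene, but since the signals come from different probes they do not give the ratio of transcript amounts.

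**Figure D4:**
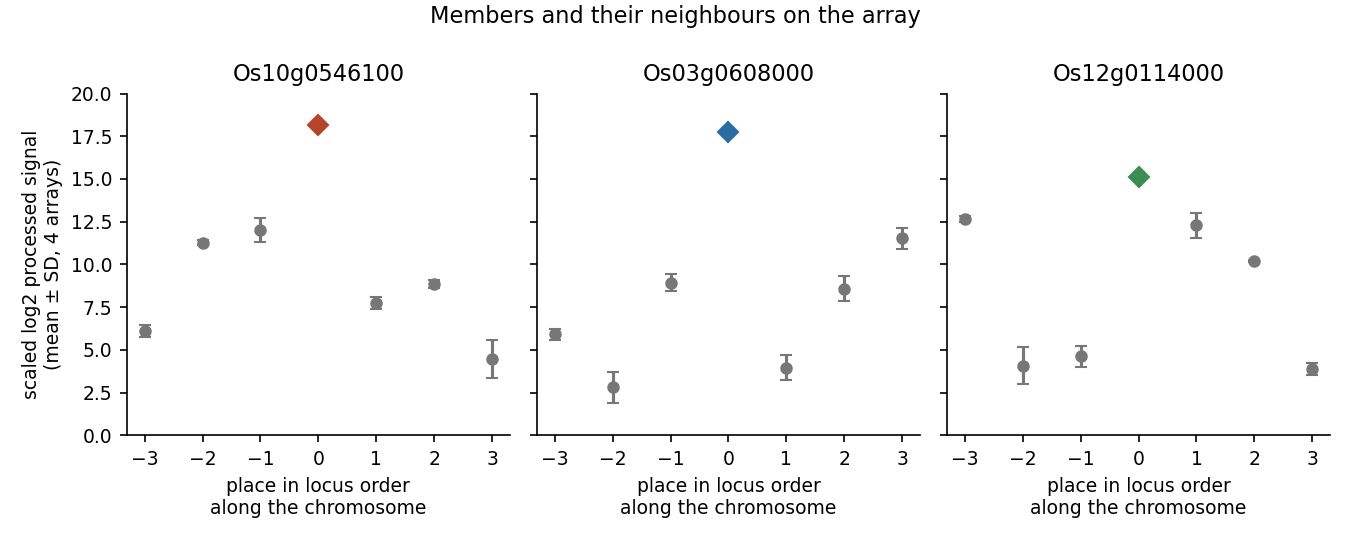
Mean scaled log2 signal ± SD over the 4 arrays of each member (coloured diamond at place 0) and of the 3 array genes on either side of it in locus order (grey points), with negative places for the lower locus numbers. Each member, chosen by its signal, lies above all 6 of its neighbours. The smallest gap is 6.13 or more for Os10g0546100 and Os03g0608000 and 2.48 for Os12g0114000.

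Whether the slide moved the 3 genes was asked with limma across the probes that at least 1 slide detected on each of its arrays, with Benjamini-Hochberg adjustment over all 35922 of them. Over all probes 1141 (3.18%) passed an adjusted p of 0.05, 1100 of them higher on slide 2, and 7426 had an unadjusted p under 0.05. The number passing was 0 with normexp or without replicate 1 or replicate 2, 178 with quantile normalization and 4714 without replicate 3, so the share is a loose background. Of the 3 members, 0 passed either threshold. The difference of slide 2 minus slide 1 was -0.09 for Os10g0546100 (SE 0.28, 95% interval -0.84 to 0.66, limma adjusted p = 0.869). It was 0.27 for Os03g0608000 (SE 0.27, -0.44 to 0.99, adjusted p = 0.587) and 0.13 for Os12g0114000 (SE 0.31, -0.70 to 0.96, adjusted p = 0.83). None of these directions is settled, because the sign changed with quantile normalization for Os10g0546100 (0.13) and with scaling to the median for Os03g0608000 (-0.13) and Os12g0114000 (-0.27). Median scaling moved the median slide difference of all detected genes from -0.01 to -0.41. Without scaling that median was 0.98, and 9563 probes passed, 99.6% of them higher on slide 2. In that setting Os03g0608000 differed by 1.26 (limma adjusted p = 0.0374) and Os12g0114000 by 1.11 (adjusted p = 0.0872). A pass there is common and does not set a gene apart.

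The same fit set the Lon-gin-labelled array against the Don-gin-labelled replicates, over 37689 probes. With 1 array on one side, its spread is assumed to equal that of the others. Over all probes 1 (0.00265%) passed, 3181 had an unadjusted p under 0.05, and 0 of the 3 members passed either threshold. With the slide as a block, the difference rests on the Lon-gin-labelled array against replicate 3 alone and is no separate check. In simulated data, whose noise may be harsher than the real, the Lon-gin comparison without the block recovered none of the planted differences. Some of those were far larger than the differences seen here. With 1 array on one side, the members' count of 0 says nothing of their stability. Os12g0114000 was 0.45 higher on the Lon-gin-labelled array (SE 0.41, 95% interval -0.61 to 1.52, limma adjusted p = 0.862), and it was 0.55 higher than in replicate 3 on the same slide. This difference was 0.05 with median scaling and 1.32 without scaling. Os10g0546100 differed by -0.33 (SE 0.41, -1.38 to 0.72, adjusted p = 0.882) and by -0.41 within slide 2, though by 0.54 without scaling. Os03g0608000 differed by -0.03 (SE 0.44, -1.17 to 1.12, adjusted p = 0.991) and by -0.31 within slide 2, and by 0.10 after quantile normalization. The intervals include differences of more than 2-fold for each gene, so that the arrays are not shown to be alike.

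**Figure D5:**
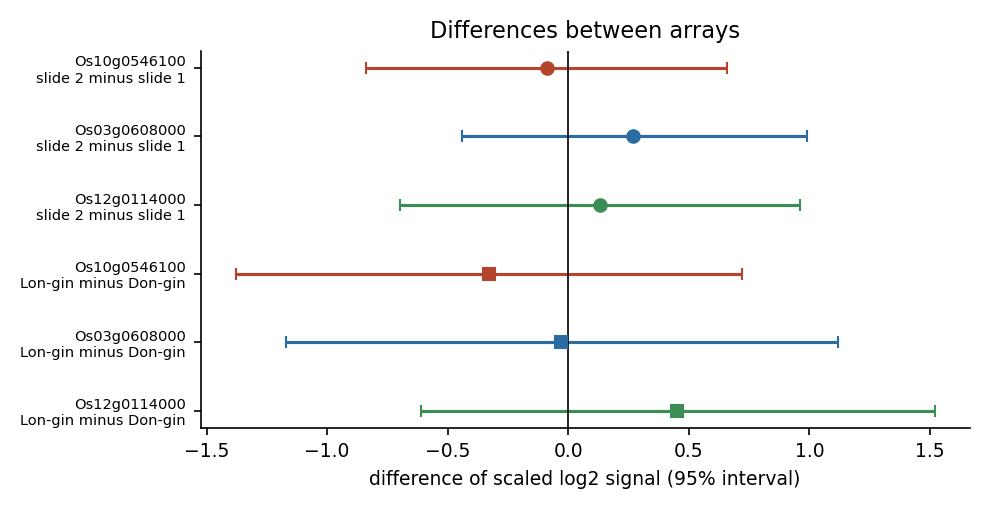
Differences of the scaled log2 signal of the 3 genes with their 95% intervals from limma, for slide 2 minus slide 1 (circles, 2 arrays against 2) and for the Lon-gin-labelled array minus the 3 Don-gin-labelled arrays (squares). All 6 intervals include 0.

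Markers of some other tissues were also highest on the array on which Os12g0114000 was highest. Both green tissue markers, RbcS and CAB2R of the photosynthetic apparatus, were highest there, at 9.55 and 9.57, which was 3.33 and 2.99 above the highest Don-gin-labelled array. Their summed scaled signal was 1510 units there and 118 to 132 on the Don-gin-labelled arrays. The 3 inner root patterning genes were also highest there, with a summed signal of 57 units against 13 to 27.4, but they were dim, and OsSHR1 and QHB were well above background on 2 arrays and OsSCR1 on 1. OsBOR1 was highest there as well (254 units against 129 to 187). Lsi1 was not, with 1210 units against 537 to 1570, and neither was OsCSLD1. The part of these tissues in the signal of Os12g0114000 was not tested.

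The listed genes whose pattern over the 4 arrays was nearest to that of each member were read off as a description. Likeness was measured as the root mean square difference between the deviations of 2 genes from their own means. The number of all detected genes that were as near is given beside each, and nothing particular to the listed genes is read from it. Among the other 408 listed genes the nearest to Os10g0546100 were Os05g0144900, a sucrose-phosphatase (0.052), Os07g0134600, a protein kinase (0.062), and Os07g0658700, a MORN motif protein (0.078), and 59, 87 and 185 of the other 20148 detected genes were as near. Nearest to Os03g0608000 were Os03g0633500, the auxin-responsive protein IAA17 (0.078), Os03g0200800, an ARF/SAR superfamily protein (0.10), and Os10g0530200, a glutathione S-transferase (0.115), with 125, 279 and 418 genes as near. Nearest to Os12g0114000 were Os11g0649600, an integral membrane protein (0.068), Os10g0552100, a physical impedance induced protein (0.092), and Os12g0199100, a disease resistance protein (0.102), with 57, 136 and 194 genes as near.

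Between the members themselves the distance was 0.186 between Os10g0546100 and Os03g0608000, 0.315 between Os03g0608000 and Os12g0114000, and 0.359 between Os10g0546100 and Os12g0114000. The list of genes nearest in pattern depended on the scaling. After quantile normalization 0 of the 3 genes named for Os10g0546100 and 0 of those for Os03g0608000 were again among the nearest 3, whereas 2 of the 3 for Os12g0114000 were.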

How the data were processed

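The authors extracted spot intensities from 4 one-colour Agilent 4x44K arrays with Agilent's Feature Extraction. The deposited file headers name version 11.5.1.1, and the submitters' processing notes name 9.1. A table of log2 values deposited by the authors kept the ranks of the median spot signal, with medians of 7.70 to 7.71 for slide 1 and 8.50 to 8.51 for slide 2. For its normalization the paper refers to an earlier publication, the method itself is not given in the sources, and the table served as an alternative. Control spots were left out, which left 43734 spots of 42477 probes, and 126 outlier spots were dropped where the probe had another spot. Processed signals were taken to log2, averaged over the spots of a probe and scaled to each array's 75th percentile, and the average of those percentiles was restored. Probes of a gene were averaged. Slides and cultivar labels were compared with limma 3.58.1 in R 4.3.3 with 2 residual degrees of freedom, over probes well above background on every array of at least 1 side. The fit with the slide as a block left fewer degrees of freedom. Tested on simulated data, the slide comparison recovered planted differences only when they were very large and the Lon-gin comparison recovered none. The simulated noise was drawn anew around each probe's estimated spread, which may be a harder setting than the real data. In the real data the slide comparison called 1141 probes. The simulation is therefore no measure of power here, and a gene that did not pass is not shown to be unchanged.

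Precision is limited by the number of arrays. Alternatives were normexp with an offset of 50 (run on the median spot signal), quantile, median and no scaling, the authors' values, other rules for probes and filters, a block for the slide, and each array left out in turn. The genes named were the members, 3 array genes on either side of each, the Ole e 1 and extensin genes, the genes without an assigned function above the lowest member and the 3 next below it, the 3 listed genes nearest in pattern, the genes next to the members in rank and the markers. The members and lists were chosen with earlier results of these data known. The promoter stretches of the members came from the study's supplementary table, and no other sequence or coordinate of them was used here.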

Additional observations from a re-analysis of the deposited data

Results flagged for a closer look

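Of 48 genes described above, 1 had an array far from the others. Os03g0607800, the array gene next to Os03g0608000, had a scaled log2 signal of 8.18 on the Lon-gin-labelled array and 9.14 to 9.30 on the other arrays. The gap was 0.858 of the whole range, above Dixon's critical value for 4 samples, and chance flags about 5% of groups. Os03g0608000 itself was not flagged.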

How the results depend on the processing

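The order of the 3 genes by mean rank was the same under each alternative. With the brightest probe of each gene the ranks were 7, 21 and 652. Os03g0608000 had a level of 17.46 and rank 24 with normexp, and 17.47 and rank 23 in the authors' values. Leaving out each array in turn gave levels of 18.10 to 18.23 and ranks 2 to 4 for Os10g0546100, 17.63 to 17.78 and 9 to 18 for Os03g0608000, and 15.01 to 15.20 and 465 to 560 for Os12g0114000.

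The slide difference of Os10g0546100 became 0.13 with quantile normalization, 0.89 without scaling, 0.97 in the authors' values and 0.11 in the Don-gin-labelled arrays alone. That of Os03g0608000 became -0.13 with median scaling, 1.26 without scaling and 1.28 in the authors' values (limma adjusted p = 0.0374 and 0.0354), and that of Os12g0114000 became -0.27 with median scaling, -0.15 in the Don-gin-labelled arrays, 1.11 without scaling and 1 in the authors' values (adjusted p = 0.0872 and 0.104). The adjusted p of the slide difference lay between 0.0354 and 0.973 over the alternatives. The Lon-gin difference of Os10g0546100 became 0.54 without scaling and 0.56 in the authors' values. That of Os03g0608000 became 0.18 with normexp, 0.10 with quantile normalization, 0.84 without scaling and 0.82 in the authors' values. That of Os12g0114000 became 0.05 with median scaling, 1.32 without scaling and 1.17 in the authors' values, and the adjusted p of the Lon-gin difference over the alternatives lay between 0.474 and 1. Leaving out each array gave slide differences of -0.29 to 0.11, 0.12 to 0.43 and -0.15 to 0.41, and Lon-gin differences of -0.36 to -0.29, -0.11 to 0.12 and 0.41 to 0.52, for Os10g0546100, Os03g0608000 and Os12g0114000. The cause of these changes was not tested.

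The number of probes called between slides was 0 with normexp, 178 with quantile normalization, 9563 without scaling, 3140 in the authors' values, 3132 without a filter and 3106 in the Don-gin-labelled arrays. It was 0 to 4714 when each array was left out, 0 without replicate 1 or replicate 2, 4714 without replicate 3 and 3106 without the Lon-gin-labelled array. The share of calls that were higher on slide 2 was 96.4% in the main setting and 87.1% to 99.6% under other scalings. For the Lon-gin-labelled array it was 0 with normexp, without scaling, in the authors' values, without a filter and with gene means, 64 with quantile normalization, 388 with median scaling, 1957 with the slide as a block and 0 to 4714 when each Don-gin array was left out. Without replicate 3 both comparisons are the same fit, so they share the 4714 calls. No paired analysis was possible because the arrays form 1 group.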
